A study of Sus scrofa with 12 samples.

Results

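Before a long-chain fatty acid can be burned in the mitochondria it has to be taken up, bound, activated to an acyl-CoA and carried across the inner mitochondrial membrane as an acylcarnitine. The 10 genes described here code for that route: ACSL1, ACSL3, ACSL4, ACSL5, CPT1A, CPT2, SLC25A20, SLC22A5, FABP1 and CD36. They were picked by symbol from a table of 21169 gene rows, of which 13532 had counts high enough to be tested. The symbol column held 8 of them. CD36 (ENSSSCG00000015405) was found through the NCBI gene number in its description. The single row described as SLC22A5, the plasma membrane carnitine carrier, is named RAD50 in the table of Ensembl names, so SLC22A5 was not analysed here. The other 9 genes were all tested.

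The RNA came from 12 liver samples of pigs on day 15. Hezuo and Bama pigs, a pair of small Chinese breeds, were kept either at a room temperature of 23 ± 2 °C or in the cold at -15 ± 2 °C, with 3 pigs in each of the 4 groups. The purpose given with the series was to look for genes and non-coding RNAs that bear on how well Hezuo pigs resist cold. No group carried a drug, a transgene or a deletion according to the labels, which give neither age nor sex, and all 4 groups received a balanced feed.

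In the liver, fatty acids enter the hepatocyte partly through membrane proteins such as CD36 and are bound in the cytosol by FABP1. Acyl-CoA synthetases of the ACSL family trap them as acyl-CoA, which can be burned or built into triglycerides and phospholipids. CPT1A on the outer mitochondrial membrane then exchanges CoA for carnitine, SLC25A20 carries the acylcarnitine through the inner membrane in exchange for free carnitine, and CPT2 restores the acyl-CoA inside. CPT1A is the step that malonyl-CoA, the first product of fatty acid synthesis, holds back, and several genes of the route are known targets of the fatty acid sensor PPARα.

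Gene counts totalled 20041285 to 30188037 per library. Hepatocyte markers (6 of 6 found, ALB among them) summed to 93792 to 107825 CPM (counts per 1000000 gene counts) in room-temperature Bama, 30662 to 84445 in cold Bama, 133340 to 150527 in room-temperature Hezuo and 55398 to 123045 in cold Hezuo. ALB alone took 1.53% and 3.14% of the counts in cold Bama pigs 1 and 2 and 3.05% in cold Hezuo pig 2, against 7.12% to 12% in the other 9 libraries. Without ALB, the 5 other hepatocyte markers summed to 15256 to 19270 CPM in room-temperature Bama, 16424 to 19654 in cold Bama, 18697 to 25561 in room-temperature Hezuo and 17507 to 26856 in cold Hezuo, and they did not move together. In Bama the log2 fold change in the cold was 1.09 for CPS1 (adjusted p = 0.145, edgeR) and -1.11 for SERPINA1 (0.0343), with -1.10 for TTR (0.129) and -1.23 for ALB (0.283). Markers of other cell types that a liver piece holds also differed between groups. The 8 Kupffer cell markers summed to 2565 to 3335 CPM in room-temperature Bama, 3291 to 5426 in cold Bama, 1942 to 3008 in room-temperature Hezuo and 2749 to 4384 in cold Hezuo. The 6 stellate and mesenchymal markers summed to 1945 to 4131, 623 to 1096, 1361 to 2366 and 722 to 1292 CPM in the same order. The 4 T and NK cell markers summed to 63.0 to 146, 62.1 to 117, 34.4 to 57.4 and 42.2 to 61.2 CPM. The 2 red cell markers summed to between 234 and 20892 CPM, the highest in cold Hezuo pig 3. Adipocyte markers summed to at most 5.4 CPM in any library, with LEP at 0 throughout, and the 3 skeletal muscle markers found summed to at most 0.191 CPM, with TNNT3 at 0. The Y-linked gene DDX3Y had 2, 3 and 0 counts in the Bama pigs at room temperature and 2284, 0 and 3769 in those in the cold, whereas all 6 Hezuo libraries had 1331 to 2407. A difference between males and females therefore cannot be told apart from breed at room temperature, and is partly mixed with temperature in Bama. The part of cell makeup in the results was not tested.

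The 9 genes differed widely in abundance, and ACSL1 stood far above the rest. Per gene length and depth, in FPKM (fragments per kilobase and 1000000 fragments) as deposited, ACSL1 averaged 360 over the 12 libraries and ranked 140 of the 21169 rows. FABP1 followed at 75.2 FPKM, ACSL5 at 62.0, CPT1A at 59.2 and CPT2 at 39.9. SLC25A20 averaged 19.7, ACSL3 14.2, ACSL4 11.2 and CD36 3.33 FPKM, the last at rank 8035. FABP1, ACSL5 and CPT1A did not differ beyond their spread over libraries, which ran from 19.7 to 177 FPKM for FABP1, from 38.6 to 87.2 for ACSL5 and from 20.4 to 138 for CPT1A. The ranges of ACSL3 (8.41 to 29.7 FPKM) and ACSL4 (4.8 to 30.04 FPKM) also lay over each other.

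ACSL1 (ENSSSCG00000015784), the main hepatic synthetase for long-chain fatty acids, was the member with the largest difference. In Hezuo pigs 1 to 3 it stood at 705, 667 and 586 CPM at room temperature and at 2253, 2175 and 5641 CPM in the cold. In Bama pigs it stood at 950, 723 and 576 CPM at room temperature and at 486, 770 and 969 CPM in the cold. Every cold Hezuo library was thus above every other library, and the Bama groups lay over each other. In bulk tissue, fewer cells of a type and less RNA per cell cannot be told apart, and this holds for each value that follows. The log2 fold change between cold and room temperature in Hezuo was 2.36 ± 0.39 (standard error, n = 3 against 3, adjusted p = 0.0409, edgeR), a 5.14-fold rise. Pig 3 carried much of the size: without it the log2 fold change was 1.77 (adjusted p = 0.121).

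**Figure D1:**
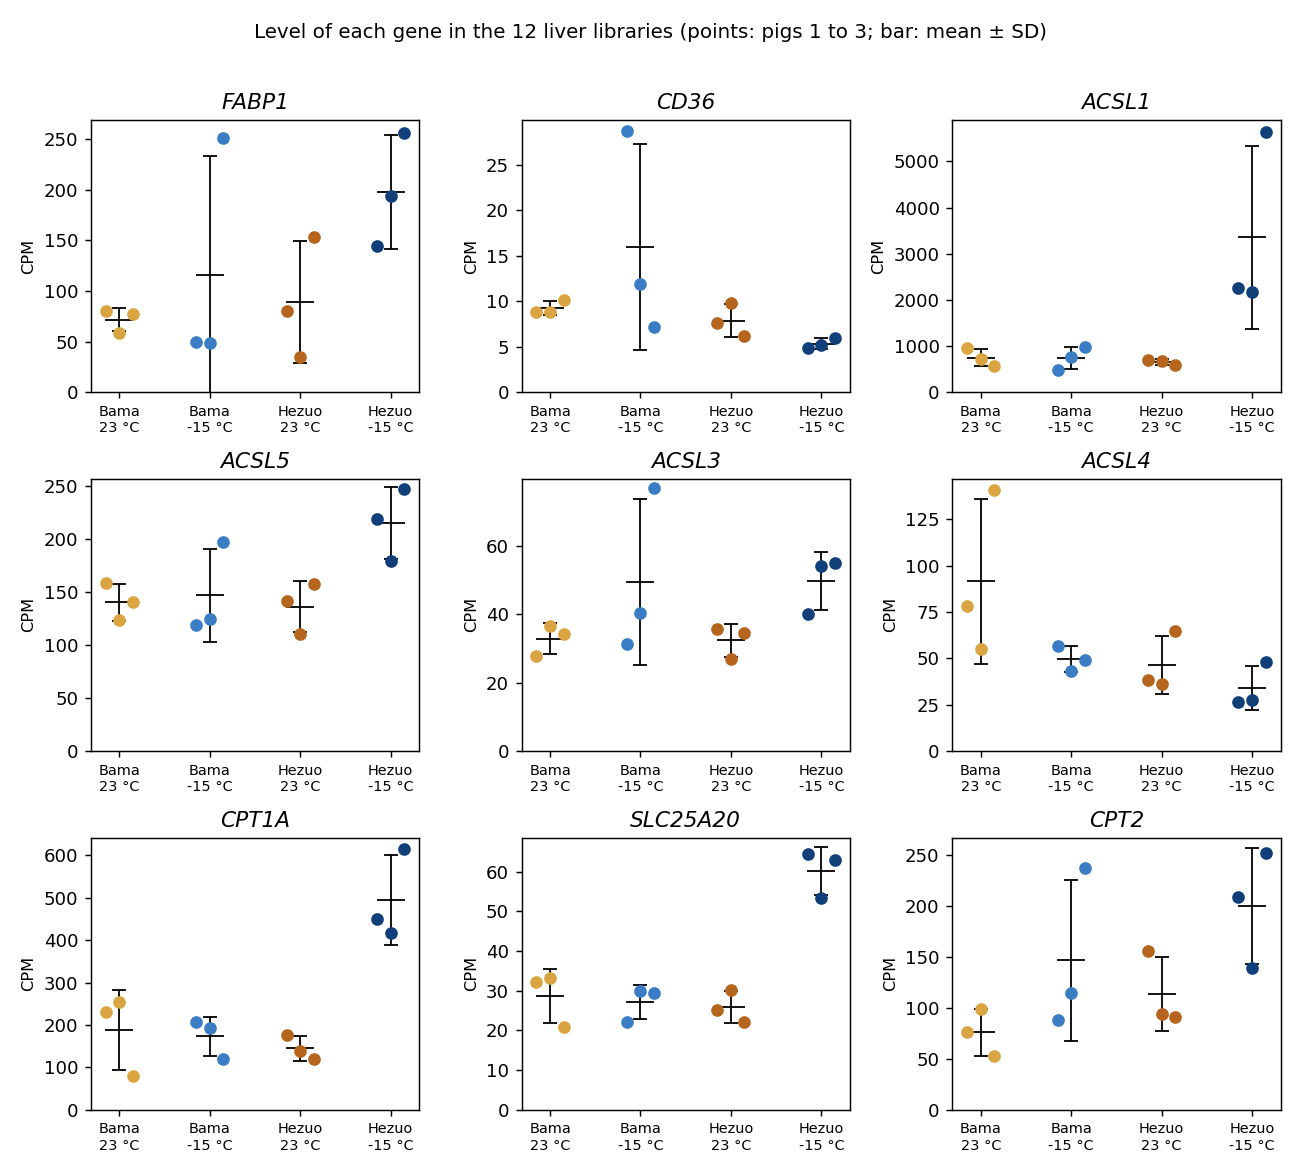
Level of the 9 genes in CPM (vertical axis, from 0, a scale of its own for each gene) in the 4 groups of 3 pigs; points are pigs 1 to 3 from left to right, and bars are the mean ± SD. The 3 cold Hezuo pigs lie above all other libraries for ACSL1, CPT1A and SLC25A20, and below all other libraries for CD36.

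The other 3 synthetases had smaller differences and none was called. ACSL5 (ENSSSCG00000031789), an enzyme of mitochondria and endoplasmic reticulum, stood at 141, 110 and 157 CPM in room-temperature Hezuo and at 219, 179 and 247 CPM in the cold. ACSL3 (ENSSSCG00000016223), a synthetase of the endoplasmic reticulum and of lipid droplets, stood at 35.7, 26.9 and 34.4 CPM and at 39.9, 54.0 and 54.9 CPM in the same pigs. For both genes the Hezuo groups did not overlap, yet the log2 fold changes of 0.66 ± 0.22 for ACSL5 (adjusted p = 0.19, edgeR) and 0.62 ± 0.28 for ACSL3 (adjusted p = 0.323, edgeR) missed the threshold of 0.05. In Bama, ACSL5 stood at 158, 123 and 140 CPM at room temperature and at 119, 124 and 197 CPM in the cold. ACSL3 stood at 27.7, 36.4 and 34.2 CPM and at 31.1, 40.3 and 76.9 CPM there, so that cold Bama pig 3 was the highest library of all for ACSL3. ACSL4 (ENSSSCG00000012583), which prefers arachidonic acid, went the other way. It stood at 78.3, 55.3 and 141 CPM in room-temperature Bama, 56.9, 43.1 and 48.9 in cold Bama, 38.3, 36.2 and 64.6 in room-temperature Hezuo and 26.5, 27.7 and 48.0 in cold Hezuo. These groups overlapped in both breeds, with log2 fold changes of -0.88 ± 0.35 in Bama (adjusted p = 0.257, edgeR) and -0.44 ± 0.35 in Hezuo (adjusted p = 0.567, edgeR).

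The make-up of the ACSL family differed in the same group. ACSL1 held 70.3% ± 6.86 of the summed FPKM of the 5 ACSL genes in room-temperature Bama, 70.1% ± 4.49 in cold Bama and 70.6% ± 5.36 in room-temperature Hezuo (SD, n = 3). In the cold Hezuo pigs it held 88.0% ± 3.82, with a range of 85.4% to 92.4%, while no other library was above 75.2%. The family sum was 939 ± 483 FPKM in that group against 226 ± 9.20 in room-temperature Hezuo. The share of ACSL5 was 9.36% ± 3.17 against 21.2% ± 3.72 there, and that of ACSL4 was 0.697% ± 0.110 against 3.66% ± 1.34. ACSL6, the ACSL gene of brain and red cells, held at most 0.148% of the sum in any library.

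**Figure D2:**
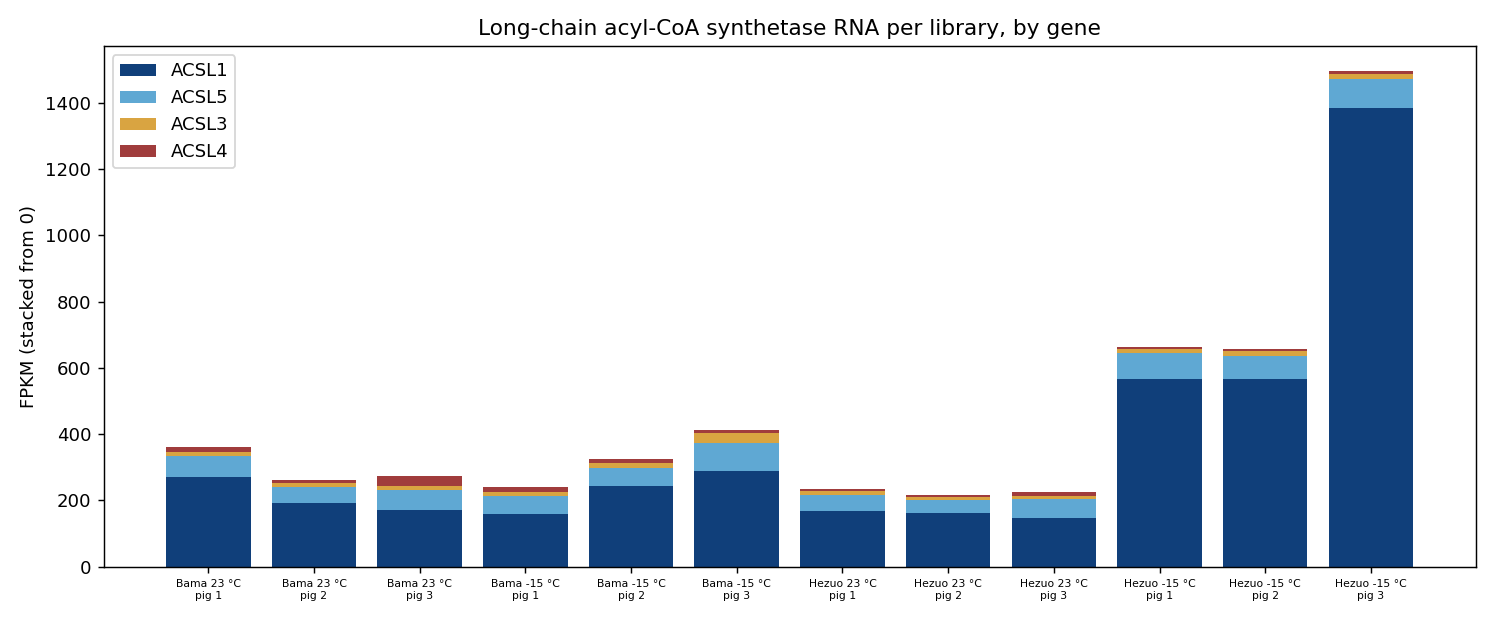
Stacked FPKM (vertical axis, from 0) of ACSL1, ACSL5, ACSL3 and ACSL4 in each of the 12 libraries. The 3 cold Hezuo pigs have the tallest bars, nearly all of the added height being ACSL1, and pig 3 reaches a family sum of 1496 FPKM.

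SLC25A20 (ENSSSCG00000011366), the carnitine-acylcarnitine carrier, was the member with the tightest difference. It stood at 25.2, 30.1 and 22.2 CPM in Hezuo pigs 1 to 3 at room temperature and at 64.5, 53.3 and 62.9 CPM in the cold. The Bama pigs had 32.2, 33.1 and 20.8 CPM at room temperature and 22.1, 29.8 and 29.5 CPM in the cold. The 9 libraries outside the cold Hezuo group all lay between 20.8 and 33.1 CPM, and the lowest cold Hezuo pig was at 53.3. The log2 fold change in Hezuo was 1.22 ± 0.19 (n = 3 against 3, adjusted p = 0.0409, edgeR), a 2.33-fold rise.

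CPT1A (ENSSSCG00000012880), the gate of the mitochondrial route, had a larger but more variable difference. It stood at 176, 139 and 119 CPM in room-temperature Hezuo and at 451, 416 and 615 CPM in the cold. In Bama it stood at 231, 253 and 79.7 CPM at room temperature and at 206, 193 and 120 CPM in the cold, with pig 3 lowest in both groups. The labels do not say whether a number links pigs of different groups. The Hezuo groups did not overlap and the log2 fold change was 1.77 ± 0.38 (3.42-fold), but its adjusted p of 0.0838 (edgeR) was above the threshold. It fell below with DESeq2 (adjusted p = 0.000228), with an edgeR fit of only the 2 Hezuo groups (0.0157) and without Bama pig 3 at room temperature (0.0161). CPT1A was thus called in 2 of 7 alternative fits and in 1 of 12 fits without 1 library (adjusted p up to 0.27, edgeR). Among the fits that did not call it were limma on FPKM, pig number as a block and DDX3Y presence as a covariate. CPT1A made up 97.9% ± 0.583 of the summed FPKM of the 3 CPT1 genes in the cold Hezuo pigs (SD, n = 3), and 91.2% to 93.8% on average in the other groups. The rest was nearly all CPT1C, the form best known from neurons.

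CPT2 (ENSSSCG00000003851), the enzyme inside the inner membrane, did not separate the groups. It stood at 156, 94.0 and 91.6 CPM in room-temperature Hezuo and at 209, 139 and 252 CPM in the cold. In Bama it stood at 76.3, 99.0 and 52.6 CPM at room temperature and at 88.5, 115 and 237 CPM in the cold. Its log2 fold changes were of like size in Hezuo (0.81 ± 0.38, adjusted p = 0.332, edgeR) and in Bama (0.95 ± 0.38, adjusted p = 0.264, edgeR), neither called. The interval of the difference between them ran from -1.32 to 1.05.

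FABP1 (ENSSSCG00000008214), the liver's cytosolic fatty acid binding protein, varied widely within groups. It stood at 79.7, 58.7 and 76.8 CPM in room-temperature Bama, 49.1, 48.5 and 251 in cold Bama, 80.0, 34.3 and 153 in room-temperature Hezuo and 144, 194 and 256 in cold Hezuo. Cold Bama pig 3 reached the level of the cold Hezuo pigs, while the other cold Bama pigs lay below all Bama pigs at room temperature. The log2 fold changes were 1.15 ± 0.66 in Hezuo (adjusted p = 0.414, edgeR) and 0.69 ± 0.66 in Bama (adjusted p = 0.655, edgeR). The Bama value rested on cold pig 3: without it the value was -0.56 (adjusted p = 0.738, edgeR). With DDX3Y presence as a covariate the Bama value was -0.57, but that fit sets cold pig 2 alone, the cold Bama pig without DDX3Y, against room temperature. Without room-temperature Hezuo pig 3 the Hezuo value was 1.8 (adjusted p = 0.333, edgeR). Without cold Bama pig 3, FABP1 in the cold was higher in Hezuo than in Bama by 2.02 (adjusted p = 0.0685, edgeR), which missed the threshold.

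CD36, a fatty acid uptake receptor that macrophages and endothelium also carry, was the least abundant member. It stood at 7.64, 9.80 and 6.17 CPM in room-temperature Hezuo and at 4.85, 5.22 and 5.96 CPM in the cold. In Bama it stood at 8.77, 8.79 and 10.1 CPM at room temperature and at 28.7, 11.9 and 7.15 CPM in the cold. The cold Hezuo pigs were the lowest of all 12, and cold Bama pig 1 was the highest by far. Neither the log2 fold change of -0.56 ± 0.40 in Hezuo (adjusted p = 0.524, edgeR) nor that of 0.78 ± 0.39 in Bama (adjusted p = 0.361, edgeR) was called. Without cold Bama pig 1 the Bama value was 0.05 (adjusted p = 0.95, edgeR). The Kupffer cell markers summed to at most 5426 CPM in the cold Bama pigs, 4384 in the cold Hezuo pigs and 3335 in the others, and their part in the CD36 values was not tested.

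Counted together, 2 of the 9 members were called between cold and room temperature in Hezuo, both higher in the cold, against 0.281% of all genes tested (38 of 13532; 27 of them, 0.2%, were higher). Libraries did not overlap for 5 members that were higher (ACSL1, ACSL3, ACSL5, CPT1A and SLC25A20) and for 1 that was lower (CD36), against 21.8% of all genes (10.8% higher and 10.9% lower). The median log2 fold change of the 9 members was 0.81, and that of all genes -0.01. In the 12 fits that each left out 1 library, ACSL1 and SLC25A20 each kept the call in 5, with adjusted p up to 0.166 and 0.134. Both lost it without Bama pig 2 in the cold, without any one of the 3 Hezuo pigs at room temperature, and without Hezuo pig 2 or 3 in the cold. ACSL1 also lost it without Bama pig 2 at room temperature (adjusted p = 0.0558), and SLC25A20 without Hezuo pig 1 in the cold (0.0555). Fitted on the 2 Hezuo groups alone, ACSL1 also lost the call (2.37, adjusted p = 0.0543, edgeR) and SLC25A20 kept it. With pig number as a block both lost it (adjusted p = 0.0844 for ACSL1 and 0.0808 for SLC25A20, edgeR). With DDX3Y presence as a covariate their adjusted p was 0.0812 and 0.0679 (edgeR). DDX3Y was present in all 6 Hezuo libraries, so that this covariate does not vary within Hezuo and cannot move these fold changes. Within a group it varied among the cold Bama pigs only, where pig 2 alone lacked DDX3Y. With this covariate the Bama response therefore rests on cold pig 2, and the comparison of the breeds in the cold leaves that pig out.

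In Bama no member was called in the cold with edgeR, against 0.924% of all genes (125 of 13532), and none with DESeq2 or with limma on FPKM. At an unadjusted p under 0.05 there were 2, ACSL4 and CPT2, against 15.8% of all genes. No member's Bama groups were free of overlap, against 21.3% of all genes, and the median log2 fold change was 0.06. The 95% intervals in Bama ran from -0.82 to 0.79 for ACSL1, from -0.93 to 0.69 for CPT1A and from -0.50 to 0.34 for SLC25A20, so that changes of the size fitted in Hezuo lay outside them.

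**Figure D3:**
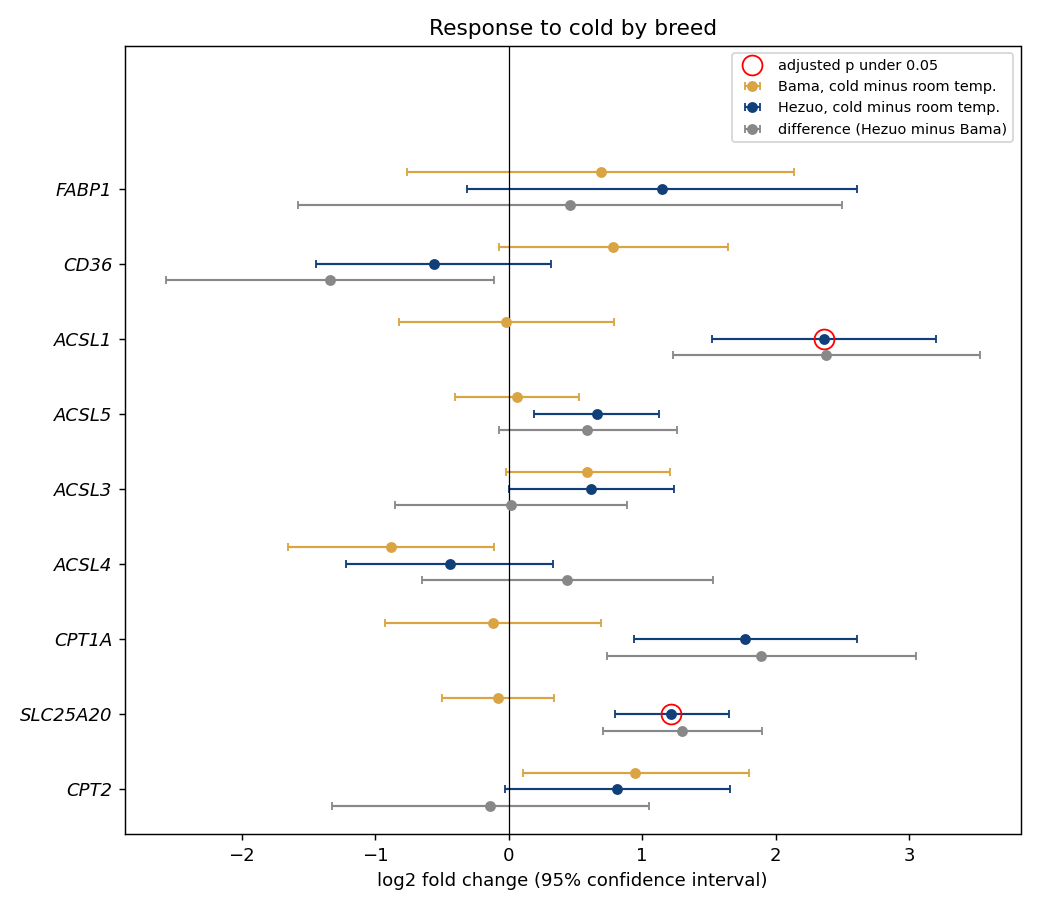
Log2 fold change between cold and room temperature (horizontal axis) with its 95% confidence interval for each gene in Bama and in Hezuo, and the difference between the breeds; red rings mark an adjusted p under 0.05. The intervals of ACSL1, ACSL5, CPT1A and SLC25A20 lie above 0 in Hezuo and span 0 in Bama. In Bama the interval of CPT2 lies above 0 and that of ACSL4 below it, and both span 0 in Hezuo. No difference between the breeds is ringed.

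Whether the breeds responded differently was tested as the difference of their responses. No member was called with edgeR, against 0.00739% of all genes (1 of 13532), although 4 had an unadjusted p under 0.05 (8.02% of all genes). The difference in log2 fold change, Hezuo minus Bama, was 2.38 ± 0.53 for ACSL1 (adjusted p = 0.2, edgeR), 1.30 ± 0.27 for SLC25A20 (0.177), 1.89 ± 0.53 for CPT1A (0.349) and -1.34 ± 0.56 for CD36 (0.583). DESeq2 called the first 3, with adjusted p of 0.00147 for ACSL1, 0.00474 for SLC25A20 and 0.0319 for CPT1A, and limma on FPKM called none. Over all genes, DESeq2 called 134 and limma on FPKM 1. Without Bama pig 3 at room temperature, edgeR called SLC25A20 (1.49) and CPT1A (2.26), each at an adjusted p of 0.037. Without cold Hezuo pig 3 the difference for ACSL1 was 1.78 (adjusted p = 0.256, edgeR), and without cold Bama pig 1 that for CD36 was -0.60 (0.697). For ACSL3, CPT2 and FABP1 the difference was 0.02, -0.14 and 0.46, with intervals of -0.85 to 0.89, -1.32 to 1.05 and -1.58 to 2.50.

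At room temperature no difference between the breeds was called for these genes. No member was called with edgeR, DESeq2 or limma on FPKM, against 1.08% of all genes with edgeR, and 1 member, ACSL4, had an unadjusted p under 0.05 (19.8% of all genes). The libraries of the breeds overlapped for all 9 members, whereas they did not for 23.8% of all genes. ACSL1 differed by -0.20 on the log2 scale (interval -1 to 0.60), CPT1A by -0.38 (-1.19 to 0.43) and SLC25A20 by -0.15 (-0.57 to 0.27), Hezuo minus Bama.

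In the cold, Hezuo pigs had 4.53-fold more ACSL1 RNA (log2 difference 2.18 ± 0.38, adjusted p = 0.0199, edgeR) and 2.22-fold more SLC25A20 RNA (1.15 ± 0.19, adjusted p = 0.0152, edgeR). These were the 2 members called of 9, against 2.76% of all genes (1.8% higher). CPT1A was 2.85-fold higher (1.51 ± 0.38) and CD36 had 0.337 times the Bama level (-1.57 ± 0.40), with adjusted p of 0.0557 and 0.0602 (edgeR). These 4 were also the members whose breeds did not overlap, 3 higher and 1 lower in Hezuo, against 25.2% of all genes (12.3% higher and 12.9% lower). DESeq2 and limma on FPKM called all 4, among 1204 and 1825 genes in all, while FPKM lowered the median difference of all genes by 0.27. ACSL1 lost its call without Bama pig 1 (adjusted p = 0.0711) or pig 2 (0.0527) in the cold, and in a fit of only these 2 groups (0.0758). With DDX3Y presence as a covariate ACSL1 was at 2.21 (0.0525), but here that fit in effect leaves out cold Bama pig 2, so this is no separate loss. Without cold Hezuo pig 3 its difference was 1.57, still called (adjusted p = 0.0391, edgeR). SLC25A20 lost it without Bama pig 1 (0.0669), Hezuo pig 1 (0.0523) or Hezuo pig 3 (0.0538) in the cold. Without Bama pig 3 in the cold, CD36 (-1.92, adjusted p = 0.0133) and ACSL5 (0.82, 0.0497) were called, and without Bama pig 3 at room temperature CPT1A was (0.0117). Without Bama pig 1 in the cold, the CD36 difference was -0.83 (adjusted p = 0.161, edgeR). These comparisons share the cold Hezuo libraries with the response in Hezuo, so they are no second measurement of it.

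Averaged over both breeds, ACSL1 rose by 1.17 ± 0.26 on the log2 scale (adjusted p = 0.0365, edgeR) and SLC25A20 by 0.57 ± 0.14 (adjusted p = 0.042, edgeR), 2 of 9 members against 3.89% of all genes (1.95% higher). The Bama values in that mean were -0.02 for ACSL1 and -0.08 for SLC25A20. DESeq2 called 5 members, adding ACSL3, CPT1A and CPT2, among 1464 genes in all. ACSL1 kept the call in 5 of 12 fits without 1 library, losing it without Bama pigs 2 and 3 at room temperature, Bama pig 3 in the cold, each Hezuo pig at room temperature and Hezuo pig 3 in the cold (adjusted p up to 0.0915). SLC25A20 kept it in 2, those without Bama pig 2 at room temperature or Bama pig 1 in the cold (adjusted p up to 0.0886 in the others). With DDX3Y presence as a covariate the values were 1.2 and 0.64, neither called, and their Bama part rests on cold pig 2 alone.

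Members and neighbouring genes of the route were described together by lists, so that the values of members recur in them. Of the 13 tested acyl-CoA synthetases, ACSL1 was the 1 called in cold Hezuo (4 at an unadjusted p under 0.05, which 15.6% of all genes had), and the list's median log2 fold change was 0.18. Of 9 tested carnitine acyltransferases and carriers, 2 were called in Hezuo, both higher, against 0.281% of all genes. They were the member SLC25A20 and CRAT, which makes short-chain acylcarnitines such as acetylcarnitine. This list also holds the members CPT1A and CPT2. Its median was 0.81, against -0.01 for all genes, and 8 of its 9 tested genes had a positive fold change. CRAT averaged 124 ± 20.8 CPM in room-temperature Hezuo and 230 ± 28.7 in the cold (SD, n = 3; log2 fold change 0.89 ± 0.16, adjusted p = 0.0469, edgeR), and 107 ± 14.8 and 115 ± 5.35 in Bama. The call of CRAT in Hezuo held in 2 of 12 fits without 1 library, those without Bama pig 3 at room temperature or Hezuo pig 1 in the cold, and its adjusted p reached 0.175 in the others. It was also lost in a fit of only the 2 Hezuo groups (0.0758), with pig number as a block (0.0844) and with DDX3Y presence as a covariate (0.0862). Between the breeds in the cold CRAT was called higher in Hezuo (adjusted p = 0.0121, edgeR). That call held in 7 of 7 alternative fits and in 11 of 12 fits without 1 library. The log2 difference ran from 0.94 to 1.1 in the latter. The call was lost without cold Bama pig 1 (0.0541). This comparison shares the cold Hezuo libraries with the response in Hezuo. Over both breeds CRAT rose by 0.49 (adjusted p = 0.0379, edgeR), a call that held in 4 of 12 fits without 1 library.

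In Bama the 1 gene called on this list was CROT, the peroxisomal enzyme that makes medium-chain acylcarnitines for export to mitochondria. It averaged 61.5 ± 22.9 CPM at room temperature and 239 ± 35.1 in the cold, a log2 fold change of 1.96 ± 0.35 (adjusted p = 0.033, edgeR). In Hezuo it averaged 116 ± 42.3 and 202 ± 65.7 CPM. The call was lost without Bama pig 1 or 3 at room temperature and without Bama pig 1 or 3 in the cold (adjusted p up to 0.101). It was also lost in a fit of only the 2 Bama groups (1.97, adjusted p = 0.0849) and with pig number as a block (2.03, 0.0535). With DDX3Y presence as a covariate the log2 fold change was 1.69 and was not called. In Bama, DDX3Y was present in cold pigs only, and this value rests on cold pig 2, which lacked it. Averaged over both breeds CROT rose by 1.38 ± 0.24 (adjusted p = 0.017, edgeR), and this call held in all 12 fits without 1 library. It was lost with DDX3Y presence as a covariate (1.25), where the Bama part again rests on cold pig 2 alone.

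**Figure D4:**
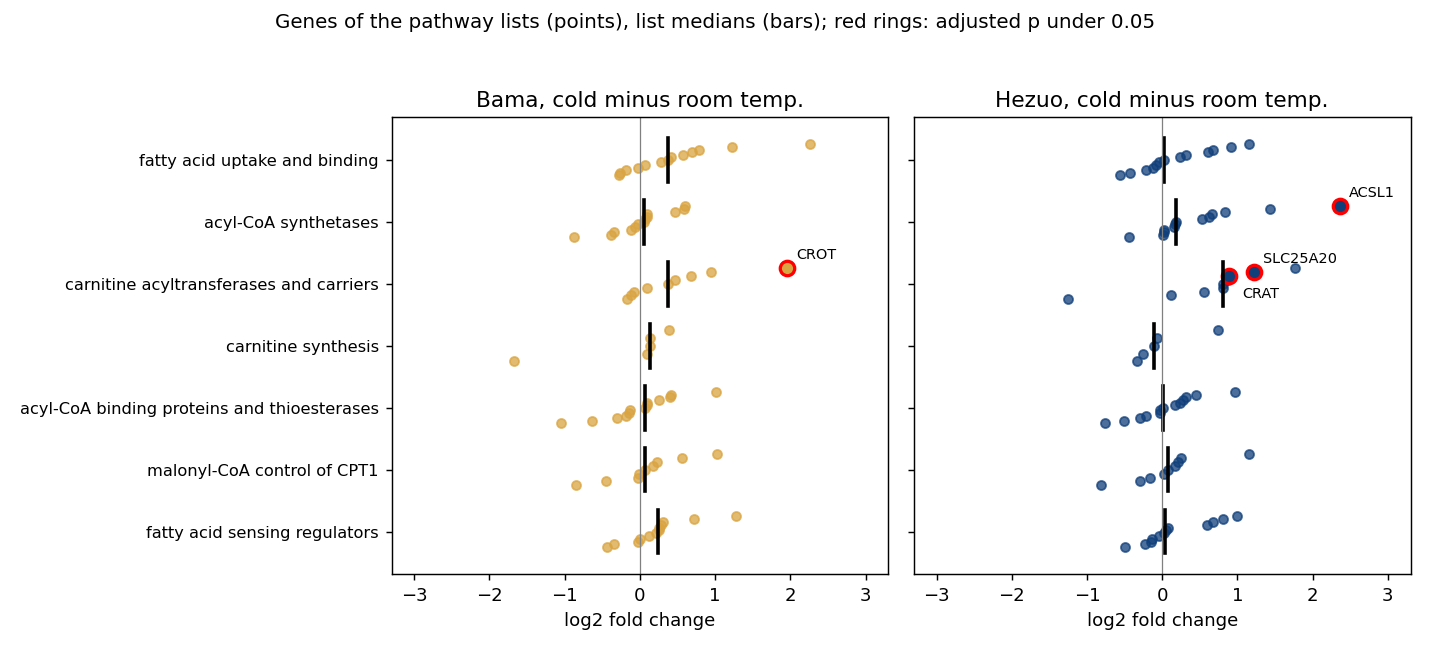
Log2 fold change between cold and room temperature (horizontal axis) of every tested gene of 7 lists in Bama and in Hezuo; points are genes, black bars list medians, and ringed, named points have an adjusted p under 0.05. The carnitine list has its median at 0.81 in Hezuo and at 0.38 in Bama, and the medians of the other lists lie between -0.11 and 0.37.

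Of the 13 tested genes of fatty acid uptake and binding, none was called in either breed with edgeR. At an unadjusted p under 0.05 there was 1 in Hezuo and 3 in Bama, against 15.6% and 15.8% of all genes. DESeq2 called 1 of the 13 in each breed, SLC27A2 in Hezuo and SLC27A6 in Bama, both fatty acid transport proteins, and limma on FPKM none. Over all genes, DESeq2 called 519 in Hezuo and 681 in Bama, and limma on FPKM 93 and 383. Of 9 tested genes that set or sense malonyl-CoA, none was called within a breed with edgeR (2 unadjusted in Hezuo, 3 in Bama), while DESeq2 called 2 in each and limma on FPKM 1 in Hezuo. MLYCD, which breaks malonyl-CoA down, averaged 13.9 ± 2.86 CPM in room-temperature Hezuo and 31.1 ± 4.62 in the cold, against 16 ± 1.01 in cold Bama. It was called between the breeds in the cold (log2 difference 0.96 ± 0.23, adjusted p = 0.0494, edgeR), a call that held in 2 of 12 fits without 1 library, those without Bama pig 2 or 3 at room temperature (adjusted p up to 0.159 in the others). The call was also lost with pig number as a block (0.0786). With DDX3Y presence as a covariate the adjusted p was 0.112, the same as without cold Bama pig 2, which that fit in effect leaves out. Over both breeds 2 of the 9 were called, 1 higher and 1 lower, against 3.89% of all genes. MLYCD rose by 0.70 (adjusted p = 0.0405, edgeR), a call that held in 2 of 12 fits without 1 library and was lost with pig number as a block (0.0632). PRKAB2, a regulatory subunit of the energy sensor AMPK, fell by 0.83 ± 0.13 over both breeds (adjusted p = 0.0107, edgeR), and the call held in all 12 fits without 1 library.

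Of 12 tested regulators, none was called within a breed with edgeR. At an unadjusted p under 0.05 there were 3 in Hezuo and 2 in Bama, against 15.6% and 15.8% of all genes. DESeq2 called 2 in each breed, among 519 and 681 genes in all, and limma on FPKM called ESRRA in Bama. Averaged over both breeds 2 of the 12 were called and higher, against 3.89% of all genes. They were ESRRA, a nuclear receptor of mitochondrial genes (0.65 ± 0.11, adjusted p = 0.0156, edgeR), and HNF4A, a master regulator of hepatocytes (0.98 ± 0.24, adjusted p = 0.0452, edgeR). ESRRA held its call in all 12 fits without 1 library and HNF4A in 2, those without Bama pig 2 in the cold or Hezuo pig 3 at room temperature. With DDX3Y presence as a covariate the values of PRKAB2, ESRRA and HNF4A over both breeds were -0.8, 0.54 and 0.78, none called. The Bama part of these rests on cold Bama pig 2 alone. PPARA, the sensor named above and chosen here after its values were seen, averaged 411 ± 161 CPM in room-temperature Bama, 509 ± 155 in cold Bama, 544 ± 70.9 in room-temperature Hezuo and 1079 ± 42.0 in cold Hezuo. Its log2 fold change in Hezuo was 0.99 ± 0.29 (adjusted p = 0.155, edgeR). DESeq2 called PPARA in Hezuo and over both breeds, where limma on FPKM did not. Both called it between the breeds in the cold, and edgeR did not.

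The genes whose log2 CPM followed the 2 called members most closely over the 12 libraries were searched among 12031 named genes, as a description, since the libraries share depth and groups. For ACSL1 they were ARF4 (r = 0.954) and SEC31A (0.951), both of vesicle traffic from the endoplasmic reticulum and Golgi, and ACADVL (0.948), the first enzyme of mitochondrial long-chain β-oxidation. For SLC25A20 they were ABCD3 (0.966), a peroxisomal fatty acid transporter, HADHA (0.957), a subunit of the mitochondrial trifunctional protein, and GART (0.939), an enzyme of purine synthesis.

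Circular RNAs, closed loops seen through reads across a back-splice junction, were listed for 7 of the 9 genes. On the genes' own strand there were 37 of them with 485 back-splice counts in all, none from FABP1 or CD36, and 12 were seen in 1 library only. Circles on the opposite strand, with 4 counts at ACSL1 and 2 at CPT2, were left out. ACSL1 had 12 with 166 counts, ACSL3 11 with 135, ACSL5 3 with 89, CPT1A 3 with 38, ACSL4 6 with 31, CPT2 1 with 24 and SLC25A20 1 with 2. Only 4 reached 30 counts, all made of annotated exons. The most counted was from ACSL5, at chr14:122800310-122803915 on the + strand with 80 counts in 12 of 12 libraries. The next was from ACSL1, at chr15:45877613-45879911 on the - strand with 79 counts in 11 libraries. The genome build of these positions is not given in the sources used here.

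The loops of ACSL1 were few beside its gene counts. ACSL1 had 13, 3 and 21 back-splice counts in room-temperature Bama, 7, 12 and 15 in cold Bama, 16, 12 and 9 in room-temperature Hezuo and 15, 13 and 30 in cold Hezuo. Per 1000 gene counts of ACSL1, pooled over the 3 libraries of a group, this came to 0.544, 0.543, 0.855 and 0.246. By library it was 0.43, 0.154 and 1.15 in room-temperature Bama, 0.6, 0.56 and 0.508 in cold Bama, 0.979, 0.816 and 0.735 in room-temperature Hezuo and 0.316, 0.258 and 0.217 in cold Hezuo. The lowest single library was thus room-temperature Bama pig 2, on 3 counts, and both the counts and the ratios of the cold Hezuo pigs overlapped those of room-temperature Bama. For ACSL5 the same ratio was 2.58, 0.893, 3 and 1.22 in that order, on 33, 11, 27 and 18 counts. At these counts no test of a circular RNA was made.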

How the data were processed

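Liver RNA depleted of ribosomal RNA was sequenced with strand kept, per the labels' protocols. The submitters' processing notes name fastp. Not given in the sources used here were the aligner, the counter and the genome build. The authors deposited estimated counts per gene, rounded here (9.48% of nonzero values were fractional), FPKM values of the same genes, and counts of back-splice reads per circular RNA with RPM values, which the authors deposited beside them and which were not used.

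Counts were fitted with edgeR 4.0.16 in R 4.3.3: TMM factors (0.874 to 1.197), filterByExpr (minimum count 10, total 15), robust quasi-likelihood, 4 groups, 12 libraries, 8 residual degrees of freedom. Adjusted p-values are Benjamini-Hochberg over 13532 genes, called under 0.05; 6 contrasts were made. CPM used TMM library sizes. Alternatives were DESeq2 1.42.0, limma 3.58.1 on log2(FPKM + 1) for genes at 0.5 or more in 3 libraries, RLE scaling, no filter, only the 2 groups compared, a replicate block, DDX3Y (at least 1 CPM) as covariate, and leaving out each library. The fits were tested on simulated data. Replicates correlated at 0.963 to 0.977 (log2 CPM) and none was merged.

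The text names all members, up to 4 called genes per pathway list and comparison, and the 3 likest genes of each called member. There were 7 pathway and 9 marker lists (133 genes, 125 found). Members and lists were chosen with earlier results of these data known. The labels number the pigs 1 to 3 in each group and do not say whether a number marks the same pig, litter or pen in different groups; p-values measure the spread between these samples.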

Additional observations from a re-analysis of the deposited data

How the results depend on the processing

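With 3 pigs a group, few fits called the same number of genes, and the cause was not tested. No called value changed direction, and RLE scaling or leaving out the low-count filter changed no call of a member. In the order Hezuo in the cold, Bama in the cold, breeds at room temperature, breeds in the cold, difference of responses and mean response, edgeR called 38, 125, 146, 374, 1 and 526 genes. DESeq2 called 519, 681, 1022, 1204, 134 and 1464. With DDX3Y presence as a covariate the numbers were 3, 1, 3, 132, 0 and 6. Fits of only the 2 groups compared called 60 in Hezuo, 12 in Bama and 116 between the breeds in the cold. limma on FPKM called 93, 383, 1825 and 1087 in Hezuo, in Bama, between the breeds in the cold and in the mean. FPKM also moved the split of higher against lower: 76 against 17 in Hezuo (27 against 11 with edgeR), 306 against 77 in Bama (52 against 73), 37 against 165 between the breeds at room temperature (91 against 55), 186 against 1639 in the cold (244 against 130) and 883 against 204 in the mean (264 against 262). Its median over all genes was shifted by 0.13, -0.18 and -0.27 in Bama, between the breeds at room temperature and in the cold.

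Of members, edgeR called 2, 0, 0, 2, 0 and 2 in the same order. DESeq2 called 4 between the breeds in the cold, 3 in the difference of responses and 5 in the mean, and limma on FPKM called 4 between the breeds in the cold and 4 in the mean. With DDX3Y as covariate 0 were called in Hezuo and 1 between the breeds in the cold, and in the fit of only the cold groups 1 was.

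Pig numbers were not taken as pairs, since the labels do not say what they mark. Deviations of same-numbered libraries within a breed correlated at -0.083 to 0.148, and 8 of 12 libraries correlated best with their own number. Every Bama library was among these (r = 0.138, 0.148 and 0.022 for pigs 1 to 3), whereas the Hezuo values were -0.083, 0.079 and -0.014. A link between same-numbered pigs is therefore not excluded. The replicate block gave 0 genes in Hezuo, 67 in Bama and 35 between the breeds at room temperature, and 0 members in Hezuo and 0 in the mean.

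Leaving out 1 library gave 0 to 66 genes in Hezuo, 18 to 133 in Bama, 8 to 593 and 69 to 423 between the breeds at room temperature and in the cold, 1 to 23 in the difference of responses and 130 to 606 in the mean. The most extreme numbers came without Hezuo pig 1 at room temperature or Hezuo pig 3 in the cold (0 in Hezuo), Bama pig 3 at room temperature (18 in Bama, 23 in the difference, 130 in the mean), Bama pig 2 at room temperature (593), Hezuo pig 1 at room temperature (8 between the breeds there) and Bama pig 1 in the cold (69). Of members it gave 0 to 3 in Hezuo, 0 to 4 between the breeds in the cold, 0 to 2 in the difference and 0 to 2 in the mean. The lowest count of a member in any library was 102 (CD36).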

Other observations

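Carnitine, the partner that the shuttle needs, is made from trimethyllysine by a short pathway. Of the 5 tested genes of carnitine synthesis, none was called in the cold in either breed with edgeR. In each breed 1 had an unadjusted p under 0.05, against 15.6% of all genes in Hezuo and 15.8% in Bama. The median log2 fold change of the 5 was -0.11 in Hezuo and 0.14 in Bama. BBOX1, which makes carnitine in its last step and is named here after its values were seen, averaged 43.2 ± 15.1 CPM in room-temperature Bama and 13.6 ± 5.50 in the cold (SD, n = 3; log2 fold change -1.67 ± 0.39, adjusted p = 0.0812, edgeR), with no overlap between these groups. In Hezuo it averaged 33.7 ± 9.93 and 26.8 ± 12.1 CPM. DESeq2 and limma on FPKM each called 1 gene of the list in Bama, BBOX1, and none in Hezuo. Over all genes they called 681 and 383 in Bama.

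Of 13 tested acyl-CoA binding proteins and thioesterases, none was called within a breed with edgeR. At an unadjusted p under 0.05 there was 1 in Hezuo and 5 in Bama, against 15.6% and 15.8% of all genes. DESeq2 called 2 of the 13 in Bama and limma on FPKM 1, among 681 and 383 genes in all. ACOT4, a peroxisomal thioesterase, was higher in Hezuo than in cold Bama by 1.16 ± 0.20 on the log2 scale (adjusted p = 0.0183, edgeR). It averaged 82.8 ± 14.8 against 37.1 ± 2.72 CPM there, and 66.1 ± 18.6 against 40.8 ± 6.37 at room temperature. The call was lost without Bama pig 1 (adjusted p = 0.0711), Hezuo pig 1 (0.0523) or Hezuo pig 3 (0.0627) in the cold. ACOT13, a mitochondrial thioesterase, fell by 0.78 ± 0.19 over both breeds (adjusted p = 0.042, edgeR). That call held in 3 of 12 fits without 1 library, those without Bama pig 2 at room temperature, Bama pig 2 in the cold or Hezuo pig 1 in the cold, with adjusted p up to 0.104 in the others. It was also lost with pig number as a block (-0.77, adjusted p = 0.0754, edgeR). With DDX3Y presence as a covariate the value was -0.67, not called, and its Bama part rests on cold Bama pig 2 alone.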
